A study of Mus with 4 samples.

Results

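Genes of retinoid handling were examined in podocytes that had been given an active form of OASIS, a transcription factor of the endoplasmic reticulum membrane that is also called CREB3L1. The 9 listed genes were Rbp4, Stra6, Crabp1, Crabp2, Rdh10, Rdh11, Aldh1a1, Aldh1a2 and Aldh1a3, and 8 of them had at least 1 probe in the table used here, with 15 probes in all out of 56605. Probes were taken by gene symbol, and Crabp2 is not analysed here. The genes themselves were selected from a comparison whose outcome on these same arrays was already known, in which Rbp4 and Rdh11 stood out, so their values are given as a description and without p-values.

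The cells were an immortalized murine podocyte line, that is, a cultured derivative of the epithelial cells that wrap the glomerular capillaries, which had been allowed to differentiate. Control cells received a lentivirus for Venus, a yellow fluorescent protein, and the other cells received a lentivirus for the amino-terminal part of OASIS, which acts in the nucleus without being cut from the membrane. Both viruses drove expression from the EF promoter, the infection lasted 24 h, and RNA was taken 48 h after the virus was added. There were 2 samples of each kind, each on its own array, and nothing in the sources says whether they were separate cultures, so that the spread between them may be technical. With 2 samples against 2, an exact permutation test of a single value cannot give a two-sided p below 0.333.

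Retinol is carried in blood by RBP4, which the liver is best known for secreting, and it can enter cells through the membrane receptor STRA6. Inside the cell, retinol is oxidized to retinal by retinol dehydrogenases and retinal is oxidized irreversibly to retinoic acid by the ALDH1A enzymes. Retinoic acid is bound in the cytosol by the CRABP proteins, acts on the nuclear receptors RAR and RXR and is broken down by the CYP26 enzymes. In podocytes, retinoic acid is known for promoting differentiation, and its synthesis in glomeruli has been studied in models of kidney disease.

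The 4 arrays shared 1 slide and 1 scan. Between 57.2% and 58.0% of the spots of an array were well above background, no spot was saturated, and the log2 values of the arrays correlated across probes with r of 0.997 for the Venus pair, 0.995 for the OASIS pair and 0.973 to 0.978 between arrays of different groups. The single Creb3l1 probe read 1517 and 1631 with Venus and 1458 and 1364 with OASIS. The part of the transcript that this probe reads was not examined here, so it does not check the labels. Of 12 podocyte marker genes, 9, among them Synpo, Actn4 and Cd2ap, had signals well above background in all samples. Tcf21 was at background on all 4 arrays, and Nphs1, which encodes nephrin, was well above it on 1 Venus array only. By the brightest probe, 2 of the 9 passed the limits described below upward, where 6.21% of all genes tested passed upward. Cd2ap was 1 of them, by probe A_52_P175066, at 4598 and 5293 with Venus and 9984 and 11148 with OASIS. Its probe A_51_P229076 went the other way, from 6413 and 6366 with Venus to 5592 and 4435 with OASIS. The log2 fold change was -0.37 there and 0.31 at A_66_P111568, and neither probe passed, so no direction is given for Cd2ap. Pdgfra, a stromal marker, changed at its brightest probe, A_51_P345649, from intensities of 2.83 and 3.05 with Venus to 124 and 97.6 with OASIS. Its part in the results that follow was not tested. Both Venus values were at background, so the change at that probe is only bounded, at 7.96-fold by the rule given below for Rbp4. Probe A_55_P2734892 read 9.82 and 7.49 with Venus and 24.6 and 23.0 with OASIS, with a bound of 1.72-fold. Probe A_55_P2735715 was not well above background on any array. Of 5 mesangial and stromal markers, 4 were tested, and Pdgfra was the 1 that passed the limits described below. The summed intensity of the 5 was 66943 and 72345 with Venus and 57424 and 59542 with OASIS. Most of it came from Acta2, at 64633 and 69347 with Venus and 55107 and 56669 with OASIS, so the sum says little about the others.

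Intensities below are the corrected intensities of the scanner software. The log2 values are taken against the 75th percentile of the same array. Testing required a signal well above background in both samples of 1 group or the other, which 8 of the 15 probes, from 6 genes, had. The other 7 probes were not tested, and Crabp1 and Aldh1a3 had no tested probe. By the limits of the study's methods, a fold over 2 or under 0.5 with an adjusted p under 0.1, 2 of the 8 probes passed, Rbp4 upward and a probe of Rdh11 downward, where 8.36% of all 31598 tested probes passed. At the adjusted p alone, 5 of the 8 passed, 2 upward and 3 downward, against 36.7% of all probes. The groups did not overlap for 5 of the 8 probes, against 68.0% of all probes. Both counts of 5 include the dim Aldh1a1 probe A_55_P2728800, counted as downward here but given no direction below. These genes were picked with this contrast known, so nothing is read from the shares.

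**Figure D1:**
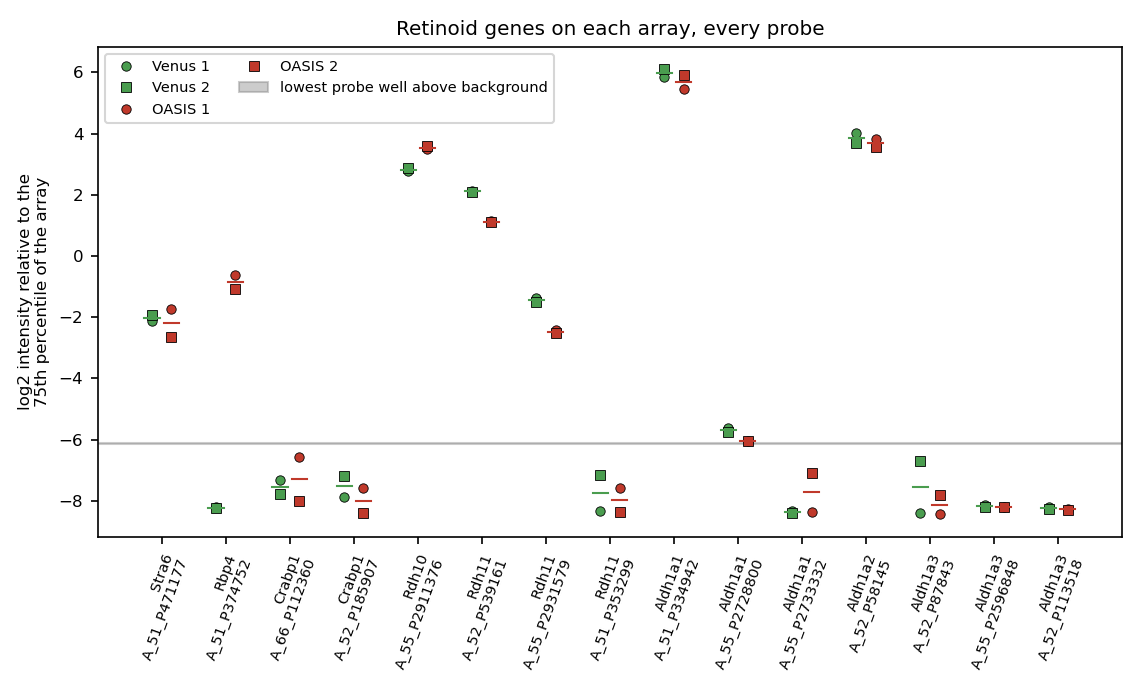
Each of the 15 probes of the 8 genes is placed along the horizontal axis, and the vertical axis gives its log2 intensity relative to the 75th percentile of the array. Circles and squares are the samples numbered 1 and 2, short lines are group means, and the grey line marks the lowest probe well above background on an array, between -6.15 and -6.10. Rbp4 lies below that line on both Venus arrays and well above it on both OASIS arrays, and the other genes show no gap of that size.

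Rbp4, the plasma carrier of retinol, was the gene of this set that went from background to a clear signal. Its probe A_51_P374752, from chromosome 19 band qC3, read 3.13 and 3.27 in the Venus samples and 617 and 455 in the OASIS samples. Both Venus values were at background and both OASIS values were far above it, with no overlap. Before correction, the spot had a median of 43 and 45 against a local background of 31 and 28 with Venus, and of 591 and 472 against 27 and 25 with OASIS. Since the Venus level is only bounded, the Venus mean was set to the lowest signal well above background, which put Rbp4 38.4-fold higher with OASIS. Some probes that were not well above background read above that floor, so the bound is approximate. The log2 values were -8.22 ± 0.019 (SD, n = 2) with Venus and -0.86 ± 0.32 (SD, n = 2) with OASIS. The probe met the filter only through the OASIS arrays. The bound depended on the processing and was 7.23-fold with normexp background correction and quantile normalization together. It was between 32.7 and 45.0 when any 1 array was left out.

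Most hepatocyte markers were at background in the same samples. Of 7 such genes, Alb, Ttr, Apoa1, Fgb and Hnf4a were not well above background on any array, and the Alb probe A_51_P160713 read 3.06, 3.20, 3.10 and 3.12 on the Venus and OASIS arrays in turn. Apoc3 and Serpina1a each had a probe above background in both groups. The summed intensity of the 7 genes was 273 and 224 with Venus and 204 and 216 with OASIS. Most of it came from Serpina1a, at 200 and 150 with Venus and 138 and 145 with OASIS. Ttr encodes transthyretin, the partner of RBP4 in plasma.

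Stra6, the membrane receptor for RBP4, did not separate the groups. Its probe A_51_P471177, from chromosome 9 band qB, read 214 and 260 in the Venus samples and 288 and 155 in the OASIS samples. The Venus values lay between the OASIS values. The log2 fold change was -0.17 with a standard error (SE) of 0.32, the widest among the tested probes, and it was 0.29 without the OASIS sample numbered 2. The spread between the OASIS samples, 0.65 (SD) on the log2 scale, was larger than the difference between the groups.

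Crabp1, which binds retinoic acid in the cytosol, was not detected with certainty in either group. Its probe A_52_P185907, from chromosome 9 band qA5.3, read 3.97, 6.82, 4.94 and 2.87 on the Venus and OASIS arrays in turn, at background on all 4. The probe A_66_P112360 of the same gene was printed as 10 spots on each array. The median of the 10 spots was 5.39 and 4.46 with Venus and 12.7 and 3.29 with OASIS. The brightest spot reached 9.95 and 7.30 with Venus and 31.3 and 44.0 with OASIS, and those bright OASIS spots were each marked as an outlier by the scanner software. Counting them, 0, 0, 2 and 1 of the 10 spots were well above background.

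**Figure D2:**
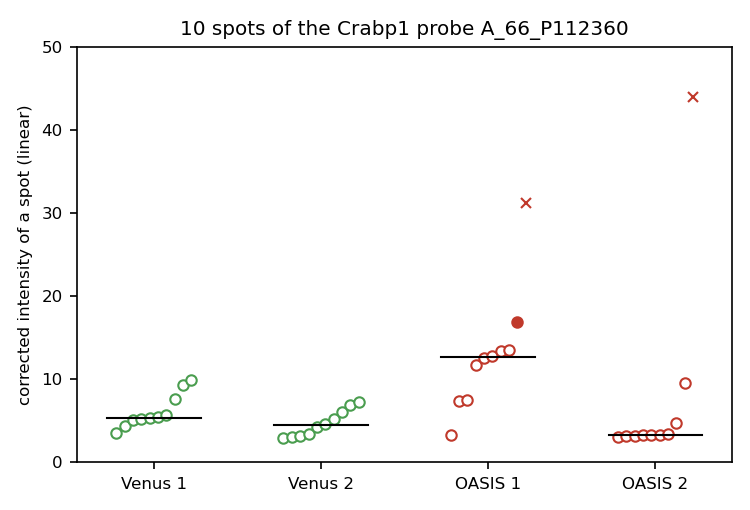
The corrected intensity of each of the 10 spots of the Crabp1 probe A_66_P112360 is plotted on a linear axis for the 4 arrays, with a line at the median of the 10. Filled circles are spots well above background, open circles are not, and crosses are spots marked as outliers. The medians lie between 3.29 and 12.7, and the crosses at 31.3 and 44.0 are single spots.

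Rdh10 and Rdh11, enzymes of the retinol and retinal step, differed between the groups in opposite directions. RDH10 is the main enzyme that oxidizes retinol to retinal in the embryo, and RDH11 is a microsomal enzyme that reduces retinal in cells. The Rdh10 probe A_55_P2911376, from chromosome 1 band qA3, read 6304 and 7215 in the Venus samples and 10705 and 11760 in the OASIS samples. Both OASIS values were above both Venus values. The log2 values were 2.82 ± 0.073 (SD, n = 2) and 3.54 ± 0.083 (SD, n = 2), a log2 fold change of 0.73 (SE 0.11), or 1.65-fold, which is under the fold limit. It lay between 0.67 and 0.78 when any 1 array was left out.

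Rdh11 had 3 probes from chromosome 12 band qC3, and the 2 that were above background gave nearly the same change. Probe A_52_P539161, assigned to transcript NM_021557, read 4015 and 4257 with Venus and 2119 and 2083 with OASIS. Probe A_55_P2931579, assigned to transcript NM_001362269, read 358 and 352 with Venus and 177 and 169 with OASIS. For both probes, the OASIS values lay well below the Venus values, and the samples of a group differed little. The log2 fold change was -0.98 (SE 0.098) for the former and -1.05 (SE 0.11) for the latter, or 50.5% and 48.4% of the Venus level. The fold limit fell between these values, so that only the latter was past it, though the changes of the probes were close. The order turned with normexp background correction and quantile normalization together, at -1.02 and -0.88. The latter probe was at -0.99 without the Venus sample numbered 1. The remaining probe, A_51_P353299, read 2.88, 6.99, 4.94 and 2.93 and was at background on all 4 arrays. As a difference of log2 values on the same array, Rdh10 minus the brighter Rdh11 probe shifted by 1.71 between the groups. It went from 0.71 ± 0.078 (SD, n = 2) with Venus to 2.42 ± 0.11 (SD, n = 2) with OASIS. The shift combines the Rdh10 and Rdh11 changes given above and is not a separate result. This quantity compares the groups only, since the brightness of different probes does not give the relative amounts of their transcripts.

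**Figure D3:**
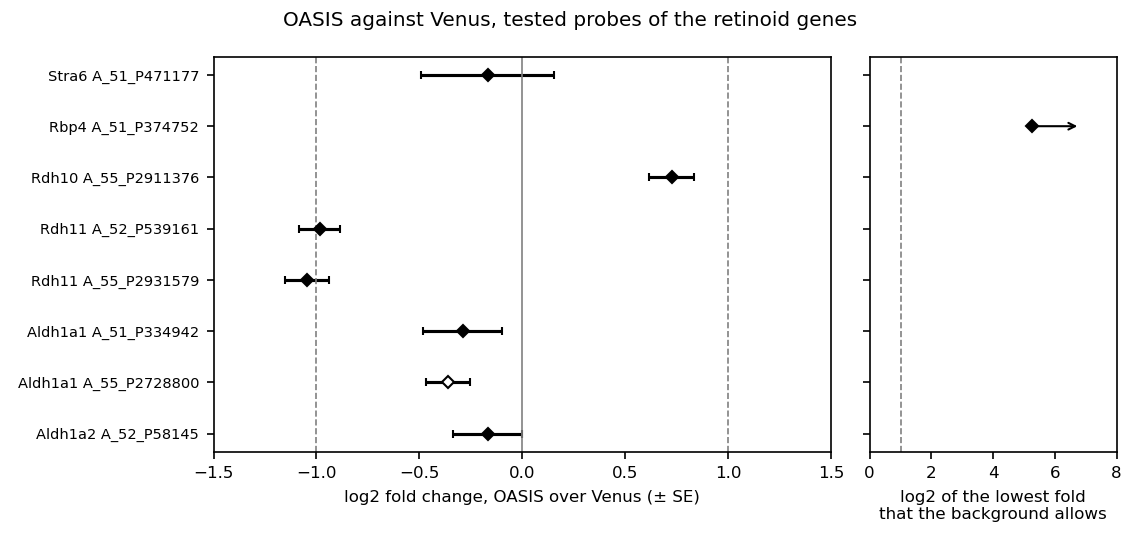
The left panel gives the log2 fold change, OASIS over Venus, of 7 tested probes, with bars for the SE and dashed lines at a fold of 2 in either direction. The right panel gives, on its own log2 axis, the lowest fold of Rbp4 that the background allows, with an arrow since the value is a bound. The open symbol is the Aldh1a1 probe that was not well above background with OASIS. Rdh10 lies at 0.73, the Rdh11 probes at -0.98 and -1.05, and Rbp4 at an approximate bound of 38.4-fold.

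The enzymes that make retinoic acid from retinal differed in whether they were detected, and none passed the limits. Aldh1a1, on chromosome 19 band qB, had a probe of very strong signal, A_51_P334942, which read 53760 and 67922 with Venus and 42491 and 58128 with OASIS. The ranges overlapped, and the log2 fold change of -0.29 (SE 0.19) ran from -0.51 to -0.073 when any 1 array was left out. Aldh1a2, on chromosome 9 band qD and best known from the embryo, read 14910 and 12864 with Venus and 13570 and 11322 with OASIS at probe A_52_P58145. These ranges overlapped as well, with a log2 fold change of -0.17 (SE 0.17) that ran from -0.32 to -0.016 when any 1 array was left out. In both genes the samples of a group differed by about as much as the groups did.

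Aldh1a1 had 2 further probes, both near background. Probe A_55_P2728800 read 18.7 and 18.3 with Venus and 14.4 and 14.6 with OASIS, where it was not well above background. The uncorrected spot medians ran the other way, at 56 and 56 with Venus and 58.5 and 59 with OASIS. With normexp correction of these medians and quantile normalization, the log2 fold change was -0.002 against -0.36, so no direction is given for this probe. Probe A_55_P2733332 was at background on all 4 arrays. Aldh1a7, a close relative of Aldh1a1 in the same band, had a weak probe that read 20.6, 21.1, 20.3 and 31.7. Whether its transcripts bind the Aldh1a1 probes was not tested.

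Aldh1a3, on chromosome 7 band qC, had 3 probes, A_52_P113518, A_52_P87843 and A_55_P2596848, and none was well above background on any array. Their intensities ran from 2.74 to 9.44 over the 12 values. Aldh1a3 was at background in both groups and Crabp1 was not detected with certainty in either, so no fold between the groups is given for them.

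With each gene represented by its brightest probe, 1 of the 6 tested genes, Rbp4, passed the limits upward and none passed downward, while Rdh11 missed the fold limit at that probe. Of all 16318 genes tested this way, 6.21% passed upward and 1.85% downward. The median log2 fold change of the 6 genes was -0.17, and that of all genes was -0.056. By the annotation of the deposited table, Aldh1a1, Aldh1a2, Rdh10 and Rdh11 belong to the retinol metabolism pathway, a term that the choice of genes did not use but that follows from their function.

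Of 57 further genes of retinoid transport, metabolism and signalling, 35 were tested. By the brightest probe, 1 passed upward, 1 passed downward and 33 did not pass, where 6.21% of all genes passed upward and 1.85% downward, with a median log2 fold change of -0.13. At the adjusted p alone, 3 of the 35 were higher and 9 lower, against 18.6% and 18.1% of all genes tested. By function, 1 of 6 tested genes of carriage and uptake passed upward and 1 of 12 oxidoreductases passed downward. None passed among the 5 nuclear receptors, the 5 genes known to respond to retinoic acid, the 6 genes of storage, hydrolysis and carotenoid cleavage or the 1 tested gene of retinoic acid clearance.

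Adh7, an alcohol dehydrogenase that also oxidizes retinol, fell with OASIS. Its intensity was 2513 and 2213 with Venus and 1105 and 1107 with OASIS, with no overlap. The log2 fold change was -1.10 (SE 0.13, adjusted p = 0.0109, limma), and it missed the fold limit, at -0.96, without the Venus sample numbered 1. The adjusted p was 0.113 by the methods' t-test.

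Lrp2, which encodes megalin, a receptor that takes up RBP4 from the filtrate in the proximal tubule, gave different answers at its 5 probes. The brightest, A_52_P285470, rose from 802 and 1287 with Venus to 2886 and 3440 with OASIS, a log2 fold change of 1.62 (SE 0.23, adjusted p = 0.0148, limma), and A_66_P137745 rose by 1.68 (SE 0.23, adjusted p = 0.0143, limma). The other 3 probes were less bright, from 39.8 to 216, and gave log2 fold changes of 0.01, -0.10 and -0.16, with overlapping groups. The mean of all 5 probes was 0.61, under the fold limit, and the adjusted p of the brightest was 0.148 by the methods' t-test. Among 5 markers of the proximal tubule, 4 were tested, and Lrp2 was the 1 that passed the limits.

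The nuclear receptors that bind retinoic acid were well above background, except Rxrg. The log2 fold change by the brightest probe was 0.24 (SE 0.097, adjusted p = 0.145) for Rara, 0.10 (SE 0.11, adjusted p = 0.568) for Rarb, -0.21 (SE 0.10, adjusted p = 0.191) for Rarg and 0.09 (SE 0.098, adjusted p = 0.538) for Rxrb, so that none of these 4 passed either threshold at that probe. A dimmer Rarb probe, A_55_P2730981, read 19.4 and 24.6 with Venus and 32.3 and 28.8 with OASIS, a log2 fold change of 0.48 (SE 0.14, adjusted p = 0.0732) that passed the adjusted p and not the fold limit. Rxra, the partner of many nuclear receptors, had 2 probes with opposite changes. Probe A_55_P2931478 read 8871 and 10268 with Venus and 15005 and 13808 with OASIS, a log2 fold change of 0.58 (SE 0.11, adjusted p = 0.0295). Probe A_51_P307370 read 564 and 618 with Venus and 391 and 327 with OASIS, a log2 fold change of -0.73 (SE 0.13, adjusted p = 0.0257). Neither reached the fold limit, and their mean was -0.07, so no direction is given for Rxra.

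Cyp26b1, an enzyme that breaks down retinoic acid and whose gene often responds to it, read 23468 and 26163 with Venus and 19297 and 23923 with OASIS. The log2 fold change was -0.21 (SE 0.14, adjusted p = 0.310). Cyp26a1 and Cyp26c1 were at background on all 4 arrays.

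**Figure D4:**
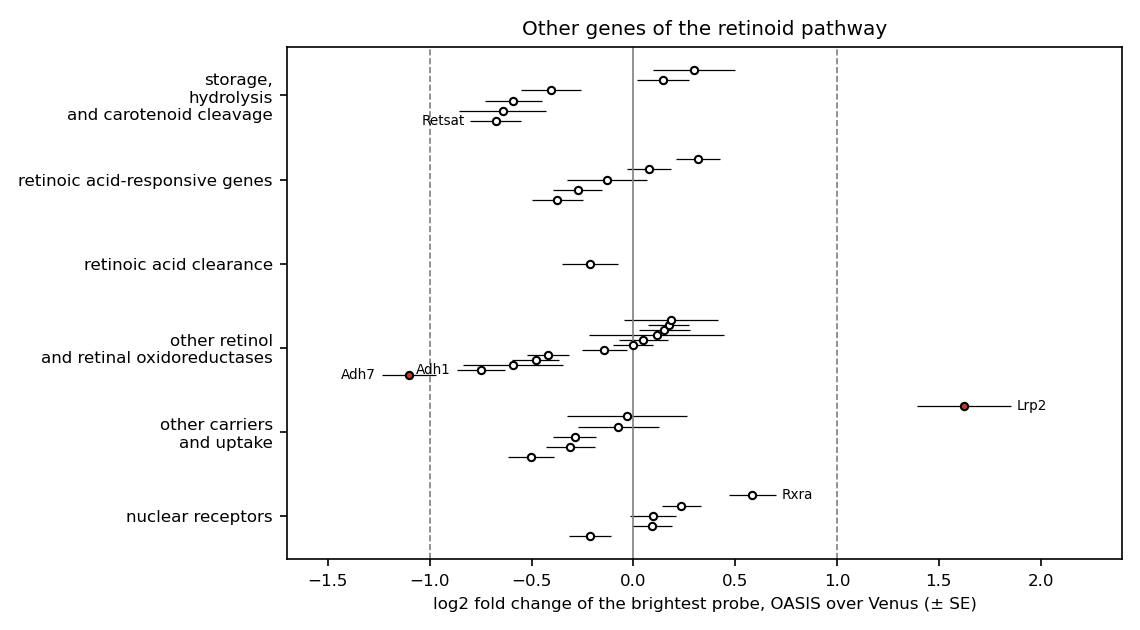
Each point is the log2 fold change, OASIS over Venus, of the brightest probe of 1 of the 35 tested pathway genes, with its SE, in rows by function, and dashed lines mark a fold of 2 in either direction. Filled points passed the limits of the study. Lrp2 at 1.62 and Adh7 at -1.10 are the filled points, and the 33 open points lie inside the dashed lines.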

How the data were processed

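RNA of 4 samples, 2 Venus and 2 OASIS, was measured on one-colour Agilent mouse arrays. The authors deposited scanner output with the corrected intensity of each spot from Agilent Feature Extraction 12.1.0.3, together with a table of scaled intensities, which are the corrected intensity times 1 factor per array. The deposited table also gives a detection score per spot, gene symbols and chromosome bands. The array annotation names build mm9. No genome of that build was used here, so no coordinates, promoter or protein sequences are given.

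After control and outlier spots were left out, log2 intensities were taken against the 75th percentile of the same array and spots of a probe were averaged. Of 56605 probes, 31598 were tested, and 57.2% to 58.0% of spots were well above background. limma 3.58.1 in R 4.3.3 (lmFit and eBayes, data.table version 1.17.8) compared the groups with Benjamini-Hochberg adjustment over all tested probes. The SE of a log2 fold change is the moderated one of limma, which also draws on the spread of all tested probes. The script was tested on simulated data. A gene was represented by its probe with the highest mean. Where neither array of a group was well above background, the mean of that group was set to the lowest signal well above background, or to the probe's own value where that was higher, and the fold is a bound. The number of arrays limits the precision.

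Genes and lists were chosen with earlier results of these data known, and the values of 1 marker gene are not reported here. Every probe of the listed genes is named, and of the pathway genes those past the limits by the brightest probe, the nuclear receptors and the Cyp26 genes with a tested probe. Alternatives were quantile and median scaling, normexp correction (offset 50, on the median spot and background intensities), the authors' scaled values, the filters on dim and outlier spots, the methods' t-test, an intensity trend, a block for the replicate number, an adjusted p under 0.05, other ways to combine probes, and leaving out each array.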

Additional observations from a re-analysis of the deposited data

How the results depend on the processing

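With 2 arrays a group, probes near the fold limit set most counts, and dim probes give only bounds. Of 270 single values under the alternatives, 252 kept their direction and their side of the limits, 6 lost a call, 8 gained one and 4 reversed. Those were Stra6, at -0.63 to 0.29 with 1 array left out and above 0 without the OASIS sample numbered 2, Rxra, at -0.074 as the mean of its probes and -0.73 at the probe with the smallest p, and Rxrb, at -0.012 as the mean of its probes. Alternatives that changed only the test or the limits could not change a log2 fold change, so the direction was fixed for them. Rdh11 joined Rbp4, for 2 of the retinoid genes past the limits, with quantile normalization, median scaling, normexp correction or the mean of a gene's probes. Without the OASIS sample numbered 1, the brighter Rdh11 probe was at -1.01, also past the fold limit. Where all 4 arrays had to be above background, Rbp4 was not tested, leaving 1 probe and 0 genes. With no fold limit, an alternative chosen after seeing the data, 5 probes and 3 genes were called, with 3 pathway genes higher and 9 lower. The methods' t-test called 0 pathway genes higher and 0 lower after adjustment, and the mean of probes called 0 higher. Leaving out each array gave 1 to 3 probes, 1 to 2 genes, 1 to 2 pathway genes higher and 0 to 1 lower. Samples with the same number deviated together with a correlation of 0.259, but 2 pairs are too few to take the numbers as pairs. With the replicate block the counts were 2 probes, 1 gene, 1 pathway gene higher and 1 lower, and no call changed.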

Other observations

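The annotation of the deposited table offers 2 wider lists, which were chosen after the values were seen. The pathway term for retinol metabolism covers 83 genes, of which 35 were tested, 0 passed the limits upward and 2 (5.71%) downward, where 6.21% and 1.85% of all genes passed, with a median log2 fold change of -0.08. The latter were Adh7 and Cyp2c23, an arachidonic acid epoxygenase of the kidney, whose intensity was 158 and 143 with Venus and 76.2 and 66.4 with OASIS, a log2 fold change of -1.09 (SE 0.14, adjusted p = 0.0132).

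Terms for a response or cellular response to retinoic acid cover 83 genes, of which 66 were tested, 5 passed upward and 1 downward, with a median of 0.006. That is 7.58% and 1.52%, where 6.21% and 1.85% of all genes passed. The 5 include Rbp4, which was picked with this contrast known, and Rbp4, Tbx1 and Hsd17b2 met the filter only through the OASIS arrays. Nothing is read from these shares. Besides Rbp4, Tbx1, a transcription factor of the pharyngeal arches, went from 9.70 and 9.14, not well above background, to 242 and 179. Hsd17b2, which inactivates oestradiol and testosterone, went from 5.27 and 8.71, not well above background, to 42.4 and 28.8. Asxl1, a chromatin regulator, rose by 1.33 (SE 0.16, adjusted p = 0.0108), and Ireb2, a regulator of iron metabolism, rose by 1.31 (SE 0.16, adjusted p = 0.0117). Ltk, a receptor tyrosine kinase, fell by 1.22 on the log2 scale (SE 0.13, adjusted p = 0.00900).

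Among pathway genes short of the fold limit at the brightest probe, named after their values were seen, were Retsat, which saturates retinol, with a log2 fold change of -0.68 (SE 0.12, adjusted p = 0.0256), and Adh1, with -0.75 (SE 0.12, adjusted p = 0.0187) at its brightest probe. A dimmer Adh1 probe, A_52_P629895, read 77.6 and 55.4 with Venus and 41.8 and 21.6 with OASIS and was past the limits, at -1.13 (SE 0.38, adjusted p = 0.0973). Stra6l, a relative of Stra6 that also takes up RBP4-bound retinol, had a probe that read 8.49 and 4.64 with Venus and 28.7 and 9.94 with OASIS, well above background on 1 OASIS array only.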
